A study of Mus musculus with 6 samples.

Results

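Signal transducers and activators of transcription (STATs) and the Janus kinases that phosphorylate them were described in mouse vascular smooth muscle cells. The group held 9 genes, taken by name from the 54532 genes of the table and not by their values. They were 6 STAT genes (Stat2, Stat3, Stat4, Stat5a, Stat5b and Stat6) and 3 kinase genes (Jak1, Jak2 and Tyk2), and they do not cover either family in full.

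Cytokine and interferon receptors have no kinase domain of their own. A Janus kinase bound to the receptor tail phosphorylates the receptor and then a STAT, and the STAT dimer enters the nucleus and binds DNA. STAT2 acts mainly in the type I interferon response, where it forms a complex with IRF9. STAT3 follows IL-6 family cytokines, STAT4 follows IL-12, STAT5A and STAT5B follow growth hormone and prolactin, and STAT6 follows IL-4 and IL-13. In vascular smooth muscle, JAK2 and STAT3 are also known to respond to angiotensin II.

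The 6 RNA-seq libraries fell into 2 groups of 3 by label, Ad-Con (genotype label WT, adenovirus with a control plasmid) and Ad-PDK4 (adenovirus with a PDK4 overexpression plasmid). PDK4 is a mitochondrial kinase that inhibits pyruvate dehydrogenase. Per the study's methods aortic smooth muscle cells were isolated from abdominal aortas by collagenase digestion and used after several passages in culture, and both groups were given angiotensin II after the virus, which the labels do not mention. No library without virus was analysed here. The study calls the 3 libraries of a group biological replicates, and the labels do not say what separates them, so p-values measure only the spread between these libraries. The labels do not give the age or strain of the animals, though the study's methods state an age for the mice that such cells came from.

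Pdk4 itself was 10.0 ± 0.469 FPKM (fragments scaled to gene length and to library size, mean ± SD, n = 3) under the Ad-Con label and 7.48 ± 0.162 under the Ad-PDK4 label, which goes against the overexpression label (whether reads of the plasmid were counted is not given in the sources used here), so the group names stand here for labels only, and higher or lower means in Ad-PDK4 compared with Ad-Con. Libraries held 17588942 to 21861872 reads assigned to genes. The smooth muscle marker Acta2 was at 78.0 ± 0.95 and 36.2 ± 2.4 FPKM, while the defining contractile markers Myh11 and Myocd had at most 10 reads and 5 reads in any library. Of 12 smooth muscle markers, 6 were tested, with 1 higher (Cald1, 56.0 and 71.9 FPKM), 2 lower (Acta2 and Tpm2) and 3 not past the test. The list summed to 241 to 246 and 204 to 221 FPKM. Below the filter, Mylk (0.756 and 0.123 FPKM), Cnn1 (0.466 and 0.247) and Des (0.186 and 0.047) were lower without overlap. The groups overlapped for Tagln (0.341 and 0.292 FPKM), Myh11 and Myocd. Of 14 leukocyte markers, 8 were at 0 in every library, among them Ptprc, Tyrobp, Itgam and Cd3e. Their summed level was 13.7 to 16.8 FPKM under Ad-Con and 3.90 to 5.91 under Ad-PDK4, most of it from Cd68. Csf1r, below the filter, went the other way without overlap (0.258 and 0.640 FPKM). The 7 endothelial markers summed to 0.617 to 0.798 and 0.885 to 1.18 FPKM, with Tie1 and Emcn at 0. Most of this sum was Kdr (0.536 and 0.919 FPKM), which did not pass the test (adjusted p = 0.065). Pecam1 and Vwf had lower means under Ad-PDK4, and Cdh5 and Tek higher ones, all with overlap. The 6 fibroblast markers were all tested, with 4 lower, 1 higher (Dcn, 90.1 and 160.6 FPKM) and 1 not past the test (Pdgfra). They summed to 1264 to 1357 FPKM under Ad-Con against 670 to 745 under Ad-PDK4, most of it Col1a1 (1055 and 435 FPKM). The part of these fibroblast genes in the results on STATs and kinases was not tested.

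The promoters of the 9 genes were read for 2 short motifs that STAT complexes are known to bind. The interferon-stimulated response element (ISRE), the site of the STAT2 and IRF9 complex, was searched on both strands as GAAA, any 2 bases, and GAAA again, and the gamma-activated site (GAS), the site of STAT dimers, as TTCNNNGAA, which reads the same on both strands. All 9 genes matched at least 1 window in RefSeq (GRCm38.p6), each from 250 bases before to 50 bases after a start site. No window of a member held a GAS match, so no GAS and ISRE overlapped. An ISRE match lay in the window of Stat2 and in 1 of the 2 windows of Stat4, against 3.44% of all 32851 windows (8.30% held a GAS match). The 2 windows are shown because they are those of the members that hold an ISRE match. The Stat2 window is chr10:128270248-128270547 (plus strand) and the Stat4 window is chr1:52007990-52008289 (plus strand), and capitals mark the ISRE letters.
Stat2: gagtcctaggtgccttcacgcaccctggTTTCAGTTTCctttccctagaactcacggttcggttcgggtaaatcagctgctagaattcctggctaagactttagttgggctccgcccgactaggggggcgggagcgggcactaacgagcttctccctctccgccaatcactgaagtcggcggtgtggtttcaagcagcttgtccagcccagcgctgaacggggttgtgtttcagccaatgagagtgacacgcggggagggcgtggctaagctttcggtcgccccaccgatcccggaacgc
Stat4: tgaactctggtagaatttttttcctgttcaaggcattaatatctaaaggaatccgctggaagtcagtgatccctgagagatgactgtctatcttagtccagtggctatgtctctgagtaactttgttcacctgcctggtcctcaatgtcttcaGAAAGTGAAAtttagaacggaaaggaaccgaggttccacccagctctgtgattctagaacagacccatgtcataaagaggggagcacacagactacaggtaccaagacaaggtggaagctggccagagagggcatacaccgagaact
The Stat2 match lies on the minus strand with its first base 222 bases before the start site, and the Stat4 match on the plus strand, 97 bases before. A match describes letters only and shows no binding.

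Stat2 was by far the most changed member, and by FPKM it moved from the fourth place among the STATs to share the first with Stat6. Stat3, Stat5b, Stat6 and Jak2 rose by smaller steps, between 1.25-fold and 1.71-fold. Stat5a, Jak1 and Tyk2 did not pass the test, and Stat4 was not expressed at a detectable level. Expression was tested with limma on log2(FPKM + 0.1) over the 13423 genes whose mean over the 6 libraries reached 0.5 FPKM, and log2 fold changes are on that scale. Of the 9 members, 8 passed this filter, and all 8 had group means above it under both labels. At a Benjamini-Hochberg adjusted p below 0.05, 5 of the 8 were higher and 0 were lower, while 21.8% of all tested genes were higher and 20.8% lower (42.7% in either direction). A fold of at least 2 was reached by 1 of the 8, beside 3.95% of all tested genes that were higher and 2.68% that were lower by as much (6.63% in either direction). The 2 groups did not overlap for 6 of the 8, all higher, and 27.8% of all tested genes were higher without overlap (54.3% in either direction). The median log2 fold change was 0.36 over the 8 members and -0.003 over all tested genes. In these bulk libraries fewer cells of a type and less RNA per cell cannot be told apart.

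**Figure D1:**
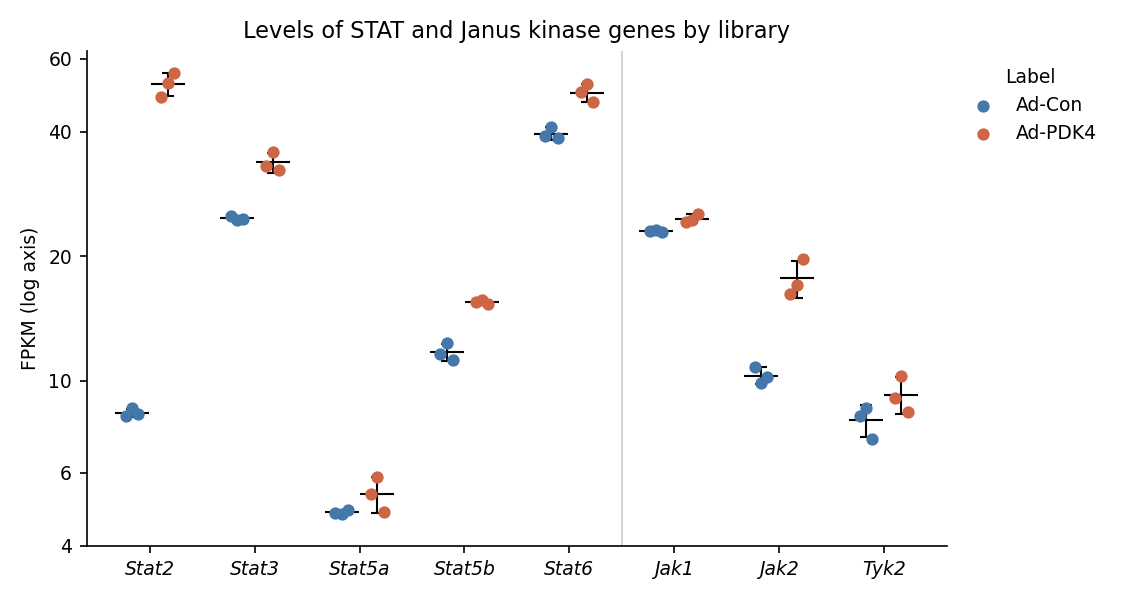
FPKM on a log axis of the 8 expressed members in each of the 6 libraries, with points for libraries and black bars for the mean and SD of 3. The Stat2 points lie near 8 under Ad-Con and near 50 under Ad-PDK4, while the points of Stat5a and Tyk2 overlap between the labels.

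Stat2 (ENSMUSG00000040033, chromosome 10, 128270559 to 128292849, plus strand) encodes the STAT of the type I interferon response. It had 8.23, 8.59 and 8.32 FPKM in Ad-Con replicates 1 to 3 and 48.6, 52.4 and 55.3 in Ad-PDK4 replicates 1 to 3, on 894 to 993 reads and 5242 to 7239 reads. The 3 libraries labelled Ad-PDK4 were all far above the 3 others. The log2 fold change was 2.62 (SE 0.06, 95% interval 2.48 to 2.76, adjusted p = 9.6e-08), a 6.15-fold rise. Only 1.14% of the tested genes had a larger log2 fold change. Stat2 was among the genes that the study itself picked from these libraries, so the rise is not independent evidence. The call held in all 17 alternatives run, between 2.50 and 2.67.

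Stat3 (ENSMUSG00000004040, chromosome 11, 100885098 to 100939540, minus strand) encodes the STAT that acts downstream of IL-6 family receptors. Its levels were 25.0, 24.5 and 24.6 FPKM under Ad-Con and 33.0, 35.8 and 32.3 under Ad-PDK4. The groups did not overlap, and the log2 fold change was 0.45 (SE 0.05, adjusted p = 4.6e-04), or 1.36-fold.

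Stat6 (ENSMUSG00000002147, chromosome 10, 127642986 to 127660957, plus strand) encodes the STAT of IL-4 and IL-13 signalling and was the most abundant STAT described here under the Ad-Con label. It had 39.0, 41.1 and 38.5 FPKM under Ad-Con and 49.8, 52.1 and 47.1 under Ad-PDK4. All 3 libraries labelled Ad-PDK4 were higher, with a log2 fold change of 0.33 (SE 0.06, adjusted p = 2.3e-03), or 1.25-fold. Its last 40 bases overlap Nab2 on the opposite strand, and whether the counting used strand is not given in the sources used here.

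Stat5b (ENSMUSG00000020919, chromosome 11, 100780731 to 100850724, minus strand) and Stat5a (ENSMUSG00000004043, chromosome 11, 100859351 to 100885169, plus strand) are neighbouring paralogs, 8626 bases apart, that answer growth hormone and prolactin. Stat5b had 11.6, 12.4 and 11.3 FPKM under Ad-Con and 15.5, 15.7 and 15.4 under Ad-PDK4. It rose by 0.40 on the log2 scale (SE 0.06, adjusted p = 8.8e-04) with no overlap. Stat5a had 4.80, 4.78 and 4.87 FPKM under Ad-Con and 5.32, 5.86 and 4.81 under Ad-PDK4. Ad-PDK4 replicate 3 lay inside the Ad-Con range, and the log2 fold change of 0.14 (95% interval -0.06 to 0.34, adjusted p = 0.23) did not pass.

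The levels of the pair were also compared with each other. The log2 ratio of Stat5a to Stat5b was -1.27 ± 0.08 under Ad-Con and -1.53 ± 0.126 under Ad-PDK4 (n = 3). By FPKM, Stat5b was the higher paralog under both labels. The difference was -0.26, and the groups did not overlap, but an exact permutation test (two-sided, 20 arrangements) cannot go below p = 0.1 for 3 against 3, which is the value it gave. Of the 50-base words of the longest transcript, 10.8% for Stat5a and 11.8% for Stat5b occur in the other gene, so reads from these stretches could have been assigned to either or dropped. Stat5a also meets Stat3 end to end, with 72 bases shared on opposite strands.

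Stat4 (ENSMUSG00000062939, chromosome 1, 51987148 to 52107189, plus strand), the STAT of IL-12 signalling in T cells and natural killer cells, had 0 reads in all 6 libraries. A count of 0 allows up to 3 reads, which for Stat4 is 0.0351 to 0.0443 FPKM depending on the library, and this limit covers counting error only. Of its 50-base words 28.6% also occur in Gm28177, a transcript that shares 29929 bases with it on the same strand and had at most 1 read, so reads from these stretches could have been dropped. It took no part in any test, and no fold can be given.

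Of the kinases, Jak2 rose, whereas Jak1 and Tyk2 did not pass the test. Jak2 (ENSMUSG00000024789, chromosome 19, 29251828 to 29313080, plus strand) serves the receptors of growth hormone, interferon gamma and several cytokines. It had 10.8, 9.87 and 10.2 FPKM under Ad-Con and 16.2, 17.1 and 19.7 under Ad-PDK4. Every library labelled Ad-PDK4 was above every library labelled Ad-Con, and the log2 fold change was 0.77 (SE 0.08, 95% interval 0.58 to 0.96, adjusted p = 2.1e-04). The rise stayed past the threshold in all 17 alternatives run, from 0.69 to 0.83.

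Jak1 (ENSMUSG00000028530, chromosome 4, 101152367 to 101265282, minus strand) pairs with other kinases at interferon and IL-6 family receptors and was the most abundant kinase of the 3. It had 23.0, 23.2 and 22.8 FPKM under Ad-Con and 24.1, 24.5 and 25.3 under Ad-PDK4. The groups did not overlap, yet the log2 fold change was only 0.10 (95% interval -0.01 to 0.21, adjusted p = 0.13). It passed with FPKM rescaled to TPM, at 0.14 (adjusted p = 0.046), and was 0.03 (adjusted p = 0.60) with quantile normalization.

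Tyk2 (ENSMUSG00000032175, chromosome 9, 21104068 to 21131243, minus strand) is the partner of JAK1 at the type I interferon receptor. It had 8.22, 8.62 and 7.23 FPKM under Ad-Con and 9.10, 10.3 and 8.43 under Ad-PDK4. Ad-PDK4 replicate 3 fell within the Ad-Con range, and the log2 fold change was 0.20 (95% interval -0.02 to 0.42, adjusted p = 0.12). In limma-voom on recovered reads it passed, at 0.20 (adjusted p = 0.047).

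**Figure D2:**
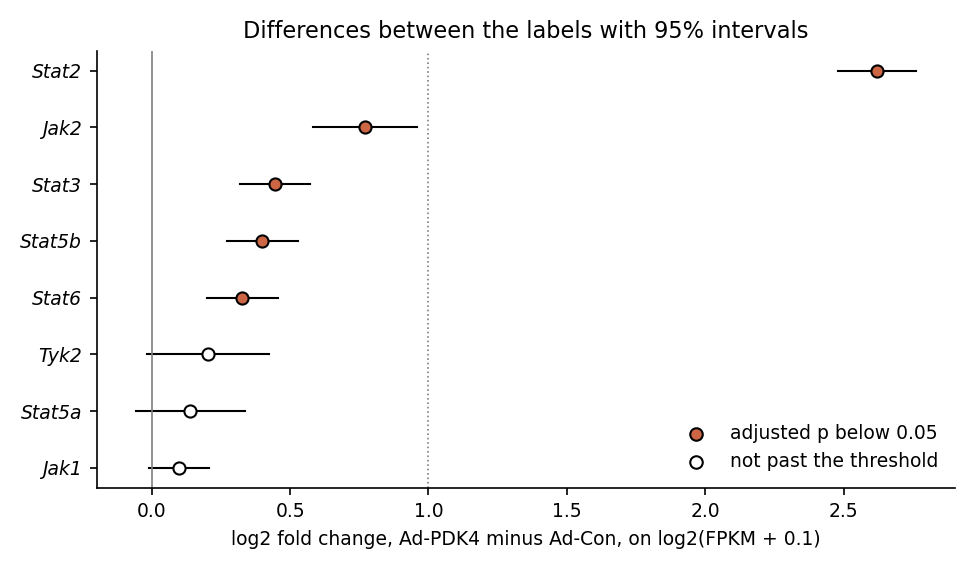
Log2 fold change of each tested member with its 95% interval from limma, filled where the adjusted p is below 0.05. The solid line marks no difference and the dotted line a fold of 2, which the interval of Stat2 alone lies beyond, while the intervals of Tyk2, Stat5a and Jak1 include 0.

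The make-up of the STAT pool moved with Stat2. FPKM is scaled by the gene length given with the values, so levels of different genes are comparable on that length only. This length was above that of the longest transcript for every member except Jak2, where both were 5030 bases. Wide gaps were those of Stat5a (7133 and 3958 bases), Stat3 (9527 and 6042) and Jak1 (7227 and 4906). Tyk2 had 6865 and 4828 bases, and Stat2 had 5926 and 4397. The orders and shares were not checked with transcript lengths. The place of Tyk2 below Jak2, and of Stat2 beside Stat6 under Ad-PDK4, therefore holds on these gene lengths only. Under the Ad-Con label the order was Stat6, Stat3, Stat5b, Stat2 and Stat5a, and the ranges of neighbours in this order did not overlap. Under the Ad-PDK4 label Stat2 (52.1 ± 3.36 FPKM) and Stat6 (49.7 ± 2.48) shared the top and their ranges overlapped, followed by Stat3, Stat5b and Stat5a. The 6 STAT genes together had 89.2 ± 1.92 FPKM under Ad-Con and 156 ± 4.97 under Ad-PDK4.

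Stat2 took 9.28%, 9.41% and 9.50% of that sum in Ad-Con replicates 1 to 3, and 31.9%, 32.4% and 35.7% in Ad-PDK4 replicates 1 to 3. The share of Stat6 went from 44.3 ± 0.597% to 31.8 ± 1.19% and that of Stat3 from 27.7 ± 0.79% to 21.5 ± 0.655%, although the levels of both genes rose. The log2 level of Stat2 minus the mean of the other 4 expressed STATs was -0.87 ± 0.02 under Ad-Con and 1.43 ± 0.14 under Ad-PDK4. For the Stat2 share and for this difference of 2.29 the exact two-sided permutation test gave p = 0.1, again the smallest possible.

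Among the kinases the FPKM order, which rests on the gene lengths used, was Jak1, Jak2, Tyk2 under both labels. The ranges of neighbours in this order did not overlap. The summed level of the kinases was 41.3 ± 0.936 and 51.6 ± 2.01 FPKM. Jak2 took 25.7%, 23.7% and 25.3% of it in Ad-Con replicates 1 to 3 and 32.8%, 33.0% and 36.9% in Ad-PDK4 replicates 1 to 3 (exact two-sided permutation p = 0.1). The share of Jak1 was 55.7 ± 0.989% and 47.8 ± 0.88%, while the groups overlapped for that of Tyk2 (exact two-sided permutation p = 0.5).

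**Figure D3:**
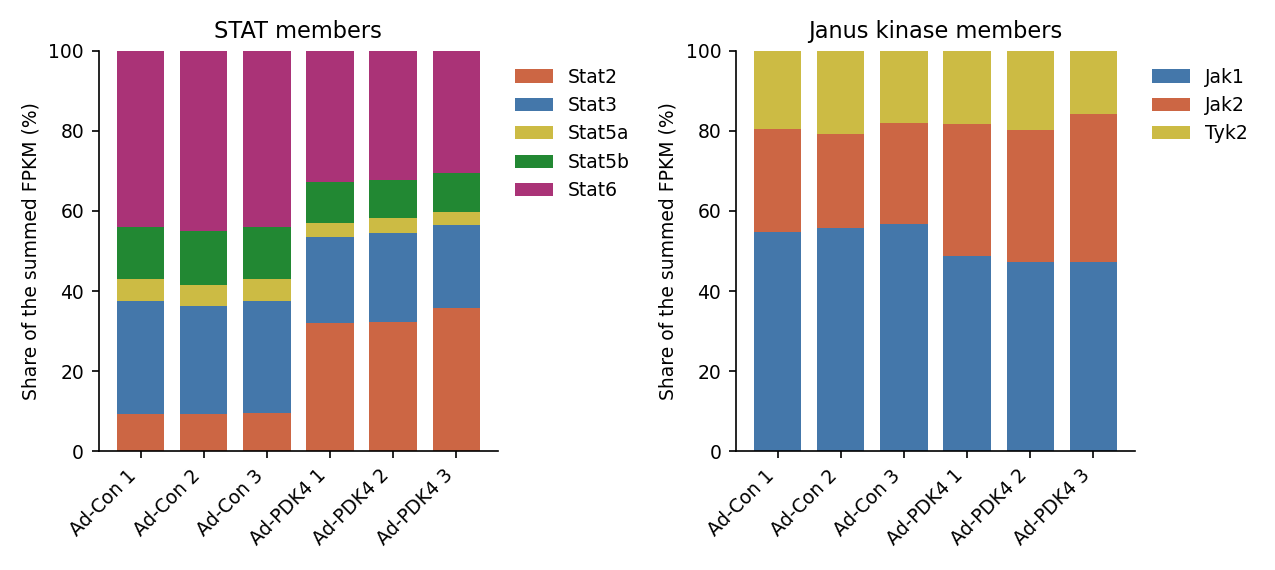
Share of the summed FPKM of the STAT members (left) and of the Janus kinase members (right) taken by each gene in each library, as stacked bars from 0 to 100%. The Stat2 block grows from about 9% to over 31% and the Jak2 block from at most 25.7% to at least 32.8%; Stat4 is at 0 and has no block.

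The rest of the pathway was described with lists written from general knowledge, but with earlier results of these data known. Their counts are therefore not independent evidence. Of all tested genes 21.8% were higher and 20.8% lower, with a median log2 fold change of -0.003. Of 32 receptor chains that bind Janus kinases, 18 passed the filter, and 10 of these were higher, 0 lower and 8 not past the test, with a median log2 fold change of 0.27. The oncostatin M receptor Osmr, which signals through JAK1 and STAT3, rose from 4.89 ± 0.134 to 17.5 ± 1.98 FPKM (log2 fold change 1.81, adjusted p = 2.8e-06). Ifnar2, the chain of the type I interferon receptor that docks STAT2, rose from 9.33 ± 0.189 to 21.9 ± 0.463 FPKM (1.22, adjusted p = 1.5e-06). Lifr, the leukaemia inhibitory factor receptor, rose from 2.80 ± 0.339 to 6.31 ± 0.425 FPKM (1.15, adjusted p = 9.6e-05).

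Of 28 ligands only 6 passed the filter, 5 of them higher and 1 not past the test, with a median of 0.65. Il6, which activates STAT3, had 4, 1 and 2 reads under Ad-Con and 114, 89 and 210 under Ad-PDK4, a log2 fold change of 4.28 (adjusted p = 3.7e-05) whose size rests on the few control reads and went down to 1.85 over the alternatives. With an Ad-Con mean of 0.05 FPKM, Il6 passed the filter only through the Ad-PDK4 libraries, so it could not be counted as lower. Lif rose by 0.88 (adjusted p = 4.1e-05) and Il15 by 0.65 (adjusted p = 2.9e-03). Ifnb1, the interferon beta gene, was below the filter, with 0 reads in each Ad-Con library and 7, 5 and 5 reads in the Ad-PDK4 libraries. The interferon genes Ifna4, Ifng, Ifnl2 and Ifnl3 were at 0 in every library.

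Inhibitors moved in both directions. Of 22 listed, 20 were tested, and 12 were higher, 3 lower and 5 not past the test, with a median of 0.30. Usp18, which binds IFNAR2 and holds back its kinase, rose from 15.7 ± 0.621 to 87.6 ± 2.33 FPKM (log2 fold change 2.47, adjusted p = 6.6e-08). Nmi, a STAT-binding protein, and Lgals9, a galectin, rose by 1.59 (adjusted p = 2.2e-05) and 1.28 (adjusted p = 5.1e-07). Nmi is also counted among the partners and cofactors, and whether Nmi or Lgals9 acts as an inhibitor was not tested. The 3 that fell were Pias3, an inhibitor of STAT3, Socs6 and Pias2, at -0.33, -0.30 and -0.24 (adjusted p = 3.3e-03, 0.011 and 0.012). Of 19 listed partners and cofactors, 18 were found and tested, of which 9 were higher, 0 lower and 9 not past the test (median 0.16). Irf9, the DNA-binding partner of STAT2, rose from 9.88 ± 0.455 to 29.7 ± 0.953 FPKM (1.58, adjusted p = 6.7e-07). The chaperone Hsp90aa1, whose family folds Janus kinases, rose by 0.79 (adjusted p = 1.1e-04).

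Genes known as targets of the STATs were counted last, to be read beside the 21.8% of all tested genes that were higher and 20.8% lower. All 22 genes of the STAT2 and IRF9 complex list were tested and all 22 were higher with a fold of at least 2, beside 3.95% of all tested genes. Mx1 (0.135 and 2.08 FPKM) and Ifi44 (0.233 and 30.2) passed the filter only through the Ad-PDK4 libraries, so they could not be counted as lower. The median log2 fold change of these 22 was 3.69. The antiviral genes Ifi44, Zbp1 and Rsad2 had the largest values, 6.51, 6.25 and 5.52 (adjusted p = 1.1e-07, 9.6e-08 and 1.1e-04). Of the 15 genes of this list with a promoter window, 8 (53.3%) held an ISRE match, beside 3.99% of all 27025 genes with a window. The list was written as targets of the complex that binds this motif, so this share is not independent evidence. Usp18 and Irf9 stand in this list as well. Genes of the STAT3, STAT5 and STAT6 lists also stand in other lists, so the counts of the lists are not separate results.

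Of 20 STAT3 targets, 18 were tested, with 15 higher, 1 lower and 2 not past the test (median 0.94). Among the higher ones, Socs3 is also listed as an inhibitor and Il4ra as a receptor. The acute-phase gene Saa3 had 2, 0 and 1 reads under Ad-Con and 2152, 1588 and 3441 under Ad-PDK4 (adjusted p = 1.1e-07). Lcn2, an iron-sequestering protein of the same response, had 0 reads in each Ad-Con library and was at least 33.5-fold higher, set against 3 reads in each of them. Saa3 and Lcn2 passed the filter only through the Ad-PDK4 libraries, so they could not be counted as lower. Cebpd, a transcription factor of the acute-phase response, rose from 2.98 ± 0.225 to 23.9 ± 3.43 FPKM (log2 fold change 2.95, adjusted p = 8.4e-07). Birc5, a survival and mitosis gene, fell by 1.07 on the log2 scale (adjusted p = 8.0e-04).

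Of 12 STAT5 targets, 11 were tested, with 6 higher, 1 lower and 4 not past the test (median 0.49). With any 1 library left out, 5 were higher. Of the higher ones, Pim1 and Bcl6 are also listed as STAT3 targets, and Cish and Socs2 as inhibitors. Spry2 and Bcl2l1, which restrain receptor tyrosine kinases and apoptosis, rose by 0.94 and 0.93, and Socs2 by 0.92 (adjusted p = 1.6e-05, 5.0e-06 and 0.010), where Socs2 went down to 0.45 over the alternatives. Id1 fell by 0.69 on the log2 scale (adjusted p = 8.1e-05). Of 13 STAT6 targets only 2 passed the filter, Socs1 and Il4ra, and both were higher, by 1.02 and 0.95 (adjusted p = 2.6e-03 and 5.1e-05), where Socs1 went down to 0.60 over the alternatives. Below the filter, the matrix gene Postn had 39, 47 and 35 reads under Ad-Con and 3, 1 and 2 under Ad-PDK4, and Arg1, an arginase, had 31, 22 and 23 and then 12, 14 and 16. Without the filter 2 targets were called lower and the median went from 0.98 to 0.33. Socs1 and Il4ra are also known to answer other STATs, and the STAT6 targets Chil3, Ccl22, Ccl24 and Ccl26 were at 0 in every library. Both tested STAT6 targets are counted elsewhere too, Socs1 as an inhibitor, and Il4ra as a receptor and a STAT3 target.

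**Figure D4:**
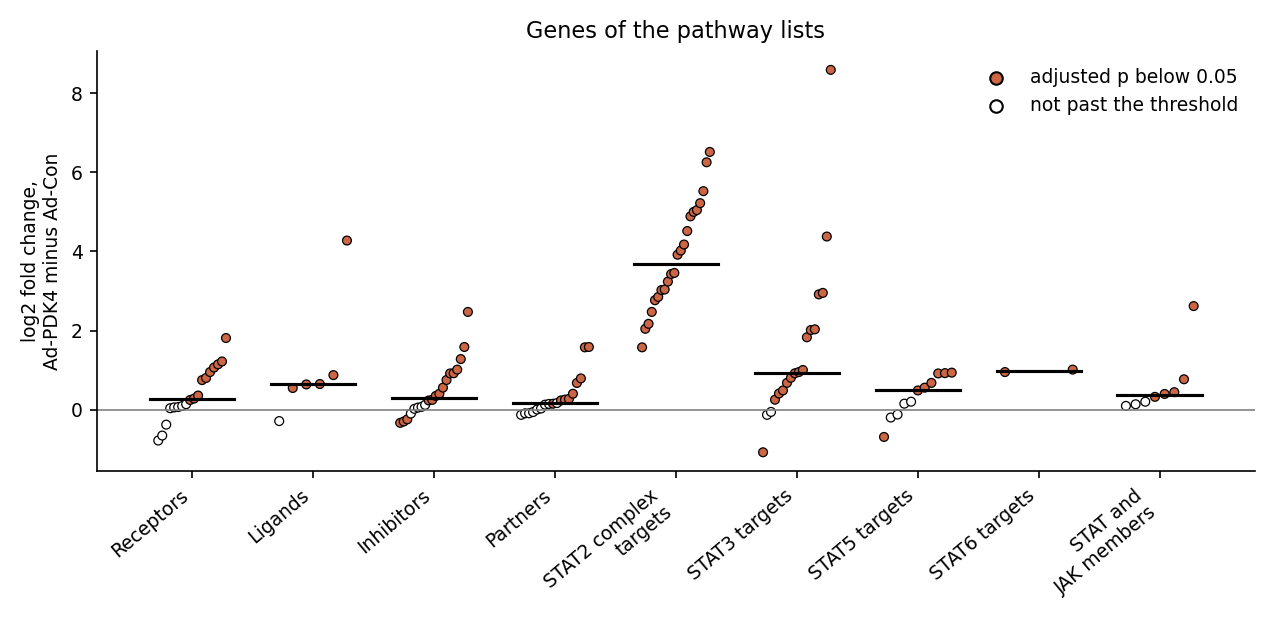
Log2 fold change (Ad-PDK4 minus Ad-Con) of every tested gene in the 8 pathway lists and of the tested members, filled where the adjusted p is below 0.05, with a bar at each median. The targets of the STAT2 complex all lie above 1, with a median of 3.69, whereas the medians of the other 7 lists lie between 0.16 and 0.98.

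The genes whose profile was most like that of Stat2 were found by the Euclidean distance between log2(FPKM + 0.1) values over the 6 libraries, each gene centred on its Ad-Con mean. The 5 nearest of the tested genes were Sp140, Apol9b, Apol9a, Rnf213 and Ifih1, at distances of 0.22, 0.22, 0.25, 0.29 and 0.30 on the log2 scale. Their log2 fold changes ran from 2.48 for Rnf213 to 2.77 for Ifih1. A short distance requires a log2 fold change near that of Stat2, so this range follows from the method. Of the 882 tested genes that the table assigns to a transcription factor family, Stat2 had the fifth largest rise, after Irf7, Sp110, Sp100 and Sp140. Stat3 was at place 96, Stat5b at 118, Stat6 at 164 and Stat5a at 319.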

How the data were processed

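RNA was sequenced from 6 libraries of mouse vascular smooth muscle cells, 3 per label. The deposited table held FPKM, computed by the authors per gene and library without pooling, together with gene lengths. The submitters' processing notes list CASAVA 1.8, fastp, HISAT2 2.0.5, featureCounts 1.5.0-p3 and DESeq2 1.20.0 and name GRCm39. The coordinates in the table were those of GENCODE M21 (GRCm38) for 98.3% of the 54495 identifiers found there and for all 9 members, and are given on GRCm38.

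FPKM times gene length gave whole reads (tolerance 0.01) for 100% of non-zero values. The values were tested with limma 3.58.1 in R 4.3.3 on log2(FPKM + 0.1). The fit used trend and robust moderation, no covariates and Benjamini-Hochberg adjustment. Every adjusted p is from this fit unless another is named. The same steps were run on simulated data with few changed genes and an assumed spread, which does not measure the error rate in these libraries. Depths were 17588942 to 21861872 recovered reads.

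Genes were named by rule: the members, Pdk4 and Acta2, the 3 largest rises and falls past the threshold in each list, marker genes, the 5 nearest profiles and overlapping genes. Ifnb1, the listed genes at 0, the higher-ranked transcription factors, and Ifnar1, Ifngr1, Ifngr2, Il6st, Il13ra1, Crlf2, Il6ra, Il27ra, Ghr, Socs3, Postn and Arg1 were picked once values were known. Mx1 was named because its Ad-Con mean was below the filter, and Cish, Pim1 and Bcl6 because lists share them. The members and lists were chosen with earlier results of these data known. The alternatives were other pseudocounts, filters, scalings and moderation, a replicate block, limma-voom and leaving out each library.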

Additional observations from a re-analysis of the deposited data

How the results depend on the processing

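The calls of Stat2, Stat3, Stat5b, Stat6 and Jak2 held in all 17 alternatives run for each, and none of the 8 tested members changed direction. Jak1 passed the threshold with TPM (0.14) and Tyk2 with limma-voom (0.20) and with the replicate block (0.20), and the cause was not tested. Of the receptor chains, Ifnar1 and Ifngr2, which did not pass, kept their sign in 16 of 17, down to -0.03 and -0.01, and Crlf2 kept its call in 14 of 17. Stat4 gave no value under any alternative because it had no reads. The log2 level of Stat2 above the other STATs was 2.19 at a pseudocount of 1.

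Replicate numbers did not pair the libraries: deviations of same-numbered libraries correlated between -0.05 and -0.001, and 0 of 6 libraries correlated best with its own number. The block gave 2759 genes higher and 2626 lower, in place of 2928 and 2798.

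For the lists, a pseudocount of 1 gave medians of 0.49 for ligands, 0.27 for inhibitors, 3.41 for STAT2 complex targets, 0.86 for STAT3 targets, 0.31 for STAT5 targets and 0.73 for STAT6 targets, and a pseudocount of 0.01 gave 3.95 for STAT2 complex targets. Without the filter the medians were 0.18 for receptors, 0.25 for inhibitors and 0.33 for STAT6 targets, with 8 ligands higher and 2 STAT6 targets lower. With a minimum of 5 FPKM fewer genes were tested, with medians of 0.55 for receptors, 0.88 for ligands, 0.25 for inhibitors, 3.92 for STAT2 complex targets and 0.58 for STAT5 targets, 1 ligand and 1 STAT6 target higher and 0 STAT3 targets lower. TPM gave 0.34 for inhibitors and 3.88 for STAT2 complex targets, quantile normalization 0.21 for receptors and 0.24 for inhibitors, and limma-voom 3.98 for STAT2 complex targets. Receptors called lower were 2 without trend and robust moderation and 1 with limma-voom.

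Leaving out 1 library gave 2324 to 2700 genes higher and 2167 to 2694 lower. Genes called higher were then 8 to 10 receptors, 10 to 11 inhibitors, 7 to 8 partners, 14 to 15 STAT3 targets and 5 STAT5 targets. In the main fit these counts were 10, 12, 9, 15 and 6. The medians ranged over 0.22 to 0.32 for receptors, 0.61 to 0.72 for ligands, 0.29 to 0.33 for inhibitors and 3.56 to 3.84 for STAT2 complex targets, with 0 to 1 receptors and 0 to 1 partners lower. Stat5a (0.07 to 0.21) and Tyk2 (0.13 to 0.27) moved by over 1.5 times without passing. With 3 libraries a label, exact tests of a single value cannot pass 0.05.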

Other observations

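Receptor subunits that share a Janus kinase pathway were set side by side, with Ifnar1, Ifngr1, Ifngr2, Il6st, Il13ra1, Il6ra, Il27ra, Crlf2, Ghr and Socs3 chosen after their values were seen. For the type I interferon receptor, Ifnar2 rose 1.22 on the log2 scale, while Ifnar1, the chain that carries TYK2, was at 12.6 against 13.0 FPKM (0.04, 95% interval -0.10 to 0.18, adjusted p = 0.64). For the interferon gamma receptor, Ifngr1, the chain that carries JAK1, rose by 0.36 (adjusted p = 2.2e-03), and Ifngr2, the chain that carries JAK2, had 0.06 (adjusted p = 0.53). The difference between the chains of either receptor was not tested.

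Il6st, the gp130 chain shared by the IL-6 family, rose from 28.4 to 49.6 FPKM (0.80, adjusted p = 3.0e-05), whereas Il6ra, the chain that binds IL-6, had 0.14 (adjusted p = 0.29) and Il27ra, the IL-27 chain, 0.07 (adjusted p = 0.72). Il13ra1 and Il4ra, which form the receptor of IL-13, rose by 1.07 and 0.95 (adjusted p = 6.2e-05 and 5.1e-05), and Crlf2, a chain of the thymic stromal lymphopoietin receptor, by 0.25 (adjusted p = 0.019). The growth hormone receptor Ghr had 0.09 (adjusted p = 0.18). Socs3, the feedback inhibitor of gp130, rose by 0.92 (adjusted p = 2.6e-04).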
